A study of Mus musculus and Homo sapiens with 32 samples.

Results

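The genes described here are 40 antioxidant, NRF2 target and iron storage genes of the mouse, picked by name from the 57180 genes of a count table of kidneys after ureteral obstruction. They are Nfe2l2, Keap1, Osgin1, Nqo1, Hmox1, Blvrb, Fth1, Ftl1, Slc7a11, Gclc, Gclm, Gss, Gsr, Glrx, Gpx1, Gpx3, Gpx4, Gpx7, Gpx8, Txn1, Txn2, Txnrd1, Txnrd2, Txnrd3, Srxn1, Msra, Prdx1, Prdx2, Prdx3, Prdx4, Prdx5, Prdx6, Sod1, Sod2, Sod3, Cat, G6pdx, Pgd, Taldo1 and Tkt. All 40 names were found, and all 40 passed the filter on low counts, as did 19256 genes in all. Slc7a11 passed it with counts that were almost all from obstructed kidneys.

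Kidneys of Pcmt1 tKO and Pcmt1 fl/fl mice were sequenced in 6 groups of 3 libraries. In each genotype the groups were unilateral ureteral obstruction (UUO, a model of kidney fibrosis) with LY2109761, which blocks both TGF-β receptor kinases, then UUO with DMSO and then sham surgery with DMSO. Pcmt1 encodes the protein repair enzyme L-isoaspartyl methyltransferase, and both genotypes are named for a Pcmt1 allele: fl/fl denotes a floxed gene, while tKO is not spelled out in the labels, which do not name a Cre driver, an age or a time after surgery either. The labels do not say whether replicates were separate animals, so p-values measure only how far these samples spread, which may reflect technique alone. The same series also deposited shorter gene lists from HK-2 cells, a human proximal tubule line, with and without PCMT1, and from kidneys of Pcmt1 KO and wild-type mice.

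NRF2, the product of Nfe2l2, is a transcription factor that KEAP1 marks for degradation until oxidants or electrophiles disable KEAP1. It then pairs with small MAF proteins on the antioxidant response element, a short DNA motif, and raises genes for glutathione synthesis, quinone reduction, haem breakdown and iron storage. Glutathione and thioredoxin pass electrons from NADPH to the peroxidases and peroxiredoxins that remove hydrogen peroxide and lipid peroxides, while superoxide dismutases and catalase act without them. The proximal tubule is rich in mitochondria and peroxisomes and carries much of this equipment in the kidney.

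The motif was looked for first, because it is what the NRF2 targets among these genes are thought to share. RefSeq promoter sequences of GRCm38.p6, from 250 bases before to 50 bases after each start, matched 34 of the 40 genes through 43 promoters. The core letters TGACNNNGC, searched on either strand, were present in 8 of those 43 promoters (18.6%), and in 12.4% of all 32851 promoters of that length. The upstream matches follow because they let a reader see the element beside the genes' responses, with the motif in capitals, as it reads on the gene's own strand; apart from Nfe2l2 all carry it on the opposite strand, where the capitals show its reverse complement.
Nfe2l2, chr2:75704869-75704913, minus strand: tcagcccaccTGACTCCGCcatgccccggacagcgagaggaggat
Gclm, chr3:122245397-122245457, plus strand: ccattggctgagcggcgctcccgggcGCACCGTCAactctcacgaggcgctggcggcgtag
Prdx1, chr4:116685440-116685500, plus strand: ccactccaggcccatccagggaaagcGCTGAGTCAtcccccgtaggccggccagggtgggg
Txnrd1, chr10:82859088-82859148, plus strand: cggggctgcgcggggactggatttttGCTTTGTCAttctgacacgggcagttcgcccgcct
Sod1, chr16:90220680-90220740, plus strand: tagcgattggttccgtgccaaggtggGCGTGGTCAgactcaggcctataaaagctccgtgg
G6pdx, chrX:74428903-74428963, minus strand: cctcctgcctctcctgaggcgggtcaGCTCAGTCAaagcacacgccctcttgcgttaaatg
Srxn1 and an alternative promoter of Pgd held the letters after the start. Among these 8 genes, Gclm and Sod1 were lower after obstruction in both genotypes, Nfe2l2 and Pgd were lower in tKO than in fl/fl obstructed kidneys, and Prdx1, Txnrd1, G6pdx and Srxn1 passed no test in any comparison of all libraries. A match describes letters only. The well-known NRF2 enhancers of Hmox1 lie far upstream of this window.

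Depth was 13015669 to 19565376 counts per library. Levels are given as CPM, each gene's counts relative to a TMM-scaled library size. Differences are log2 fold changes from edgeR's quasi-likelihood test on all 18 libraries, and a gene was called at an adjusted p under 0.05 over all 19256 genes. Pcmt1 stood at 23.1, 28 and 27.6 CPM in tKO kidneys after UUO with LY2109761, at 26, 24.7 and 26.1 CPM after UUO and at 49.3, 22.7 and 24.3 CPM after sham surgery. In fl/fl kidneys it stood at 31.3, 25.7 and 39 CPM after UUO with LY2109761, at 41.4, 35.3 and 40.6 CPM after UUO and at 48.9, 43.4 and 42.8 CPM after sham surgery. Pcmt1 was called in no comparison of the genotypes: it was at −0.29 with LY2109761 (edgeR adjusted p = 0.5354), −0.61 after UUO (edgeR adjusted p = 0.0818) and −0.48 after sham surgery (edgeR adjusted p = 0.1822). In each genotype 1 library had a Pcmt1 level like that of the other genotype. The library labelled tKO sham replicate 1 (49.3 CPM) was above every fl/fl library, and the library labelled fl/fl UUO with LY2109761 replicate 3 (25.7 CPM) was within the range of the other tKO libraries. Differences that rest on either were also computed without it. Mitochondrially encoded genes took 33.7%, 49.7% and 69.5% of the counts in the tKO sham libraries, 30.8% to 35.5% in fl/fl sham libraries and 7.43% to 18.8% after UUO in either genotype, with or without LY2109761. Proximal tubule markers, summed over 12 genes, reached 4800 to 10300 CPM in obstructed and 26600 to 43200 CPM in sham libraries. Kap was the largest part of this sum, at 2900 to 8330 CPM in obstructed and 19400 to 34000 CPM in sham libraries. The sum therefore says little about the other markers. Macrophage markers, 10 genes of which Cd163 stayed at or below 1.38 CPM, reached 1040 to 2950 CPM in obstructed and 193 to 277 CPM in sham libraries. Erythroid markers, summed over 7 genes, reached 54.5 to 305 CPM in obstructed and 655 to 3490 CPM in sham libraries. In kidney tissue, fewer cells of a type and less RNA per cell cannot be told apart.

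Per gene length, as the authors' FPKM, the secreted peroxidase gene Gpx3 ranked highest in fl/fl sham kidneys at 4270 ± 2850 FPKM (SD, n = 3), and its libraries differed widely. Prdx5 followed at 398 ± 17.1, Gpx1 at 317 ± 177, Txn1 at 267 ± 10.6, Fth1 at 262 ± 22.8 and Cat at 235 ± 6.82 FPKM. Gpx1 overlapped each of these neighbours, and Txn1 and Fth1 did not differ beyond their spread. The lowest were Gpx7 at 0.921 ± 0.132 and the cystine importer gene Slc7a11 at 0.0177 ± 0.0154 FPKM. In tKO UUO kidneys the order began with Txn1 at 305 ± 25 FPKM, Gpx3 at 253 ± 29.6 FPKM and Ftl1 at 233 ± 100 FPKM, whose spreads overlapped. The gene lengths behind these FPKM exceed the annotated GRCm38 span in 5 of the 40 genes (Prdx2, Prdx5, Gpx1, Fth1 and Ftl1). They come near it in others, such as Keap1 (9267 of 9632 bases) and Prdx6 (9135 of 11108 bases). Ranks between genes by FPKM are therefore uncertain, and not only for those 5.

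Obstruction was compared with sham surgery within each genotype, 2 comparisons that share no library. Genes for superoxide and peroxide removal, among them Sod1, Sod2, Cat and Prdx5, and the glutathione synthesis genes Gclc, Gclm and Gss fell in both genotypes, while the haem oxygenase gene Hmox1 and the endoplasmic reticulum peroxidases Gpx7 and Gpx8 rose in both. In tKO kidneys 5 of the 40 genes rose and 15 fell, where 21.6% of all tested genes rose and 19.4% fell. In fl/fl kidneys 4 rose and 16 fell, where 20.9% of all tested genes rose and 18.7% fell. Slc7a11 is counted among the higher genes of each genotype, but it passed the filter through obstructed kidneys alone, so its call is a description and supports nothing. The median change of the 40 genes was −0.44 in tKO and −0.44 in fl/fl kidneys, against 0.02 over all genes in each. UUO and sham libraries did not overlap in 19 of the 40 genes (47.5%) in tKO and 26 (65%) in fl/fl kidneys. Over all tested genes this held for 48.8% in tKO and 54.8% in fl/fl kidneys. The 4 genes that rose in fl/fl kidneys, Slc7a11 among them, were 100% of that list and 80% of the tKO list. A further 13 genes fell in both, which is 86.7% of the tKO list and 81.2% of the fl/fl list. Such an overlap among all tested genes was not computed. Without the library labelled tKO sham replicate 1, the tKO comparison gave 6 higher and 11 lower genes and a median of −0.05: the calls of Gpx3, Gpx4, Prdx3 and Prdx6 were lost, Prdx4 was newly called (0.64, edgeR adjusted p = 0.0131) and the other calls were kept. Over all genes that fit called 4177 higher and 3561 lower, with a median of 0.05. With column totals in place of TMM the median of all genes moved to 1.06 in tKO and 0.76 in fl/fl kidneys, and that of the 40 genes to 0.60 and 0.30, so all directions are relative to the bulk of expressed genes.

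**Figure D1:**
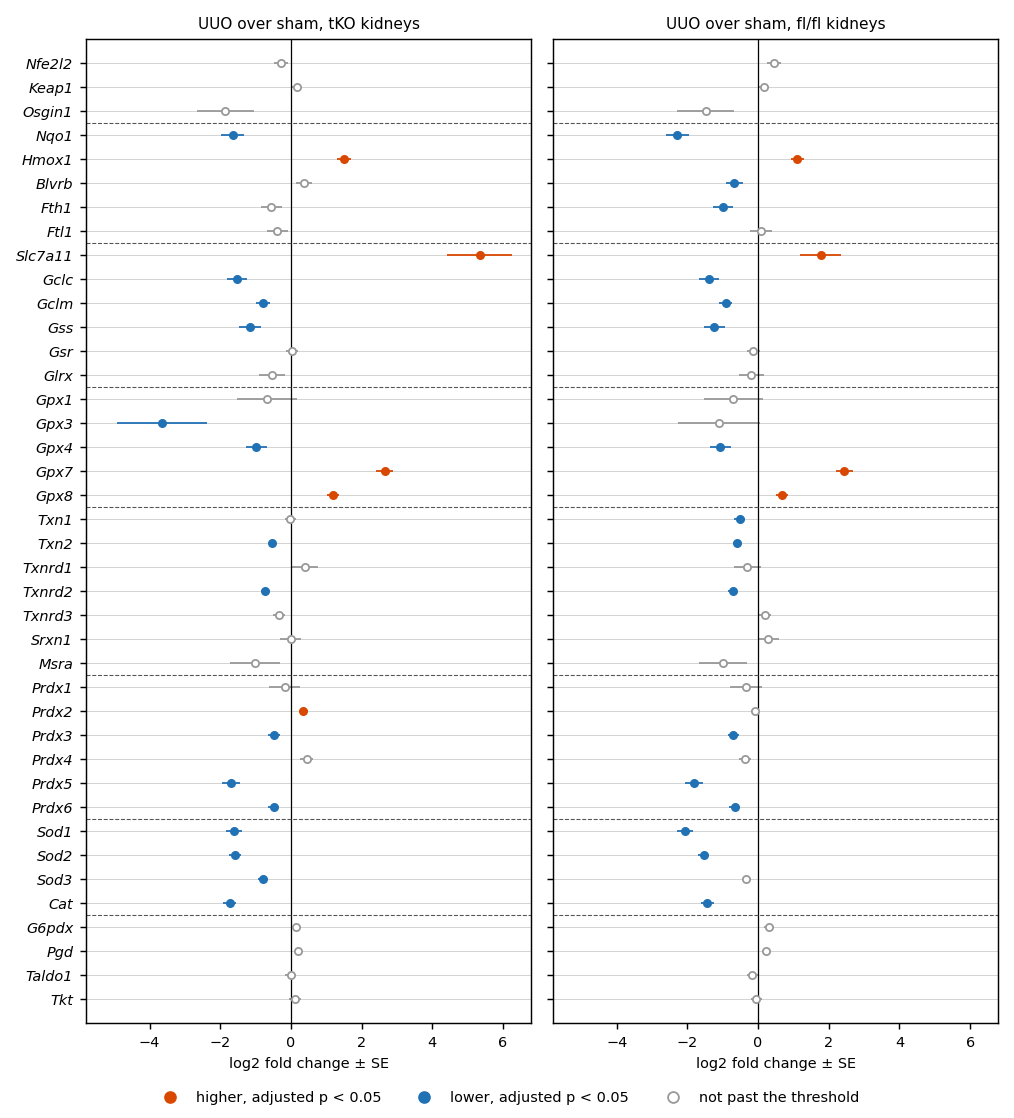
Log2 fold change of UUO over sham for the 40 genes in tKO (left) and fl/fl kidneys (right), from edgeR on 3 libraries a group, with bars of 1 standard error and dashed lines between roles. Filled points passed an adjusted p of 0.05: 5 were higher and 15 lower in tKO kidneys, 4 higher and 16 lower in fl/fl kidneys.

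The regulators themselves were not called after obstruction. Nfe2l2 (ENSMUSG00000015839, GRCm38 chromosome 2, 75675513 to 75704641), the gene of NRF2, was at −0.27 in tKO (edgeR adjusted p = 0.2959) and at 0.44 in fl/fl kidneys (edgeR adjusted p = 0.0894). Nfe2l2 stood at 119, 147 and 113 CPM in tKO kidneys after UUO with LY2109761, at 89.7, 72.3 and 84.9 CPM after UUO and at 110, 102 and 84.9 CPM after sham surgery. For Nfe2l2 the fl/fl kidneys gave 101, 86.6 and 146 CPM after UUO with LY2109761, 171, 144 and 112 CPM after UUO and 117, 97 and 102 CPM after sham surgery. The lowest library, at 72.3 CPM, was a tKO UUO one; tKO UUO libraries overlapped tKO sham libraries, and fl/fl UUO libraries overlapped fl/fl sham libraries. With column totals the tKO value was 0.74 and was called. Keap1, the adaptor that presents NRF2 for degradation, was at 0.16 in tKO and 0.16 in fl/fl kidneys, with group means between 35.5 and 50.4 CPM. Osgin1, a growth inhibitor induced by oxidative stress, was at −1.86 (SE 0.81, edgeR adjusted p = 0.0805) in tKO and −1.48 (SE 0.81, edgeR adjusted p = 0.1624) in fl/fl kidneys, on libraries that differed several-fold within groups.

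Among the classical NRF2 targets, Nqo1 and Hmox1 moved in opposite directions. Nqo1 (ENSMUSG00000003849, GRCm38 chromosome 8, 107388225 to 107403206) encodes the quinone reductase NQO1 and fell in both genotypes. Nqo1 stood at 20.5, 42.6 and 18.8 CPM in tKO kidneys after UUO with LY2109761, at 19.9, 12.9 and 29.5 CPM after UUO and at 55.3, 66.5 and 74.6 CPM after sham surgery. For Nqo1 the fl/fl kidneys gave 31.9, 29.8 and 31.7 CPM after UUO with LY2109761, 26.2, 20.8 and 36.9 CPM after UUO and 157, 132 and 121 CPM after sham surgery. All 6 sham libraries lay above all 12 obstructed ones. The change was −1.65 (SE 0.32, edgeR adjusted p = 7.3e-04) in tKO and −2.29 (SE 0.33, edgeR adjusted p = 5.1e-05) in fl/fl kidneys. Hmox1 (ENSMUSG00000005413, GRCm38 chromosome 8, 75093621 to 75100589), whose enzyme opens haem to biliverdin, iron and carbon monoxide, rose in both. Hmox1 stood at 52.3, 60.8 and 56.4 CPM in tKO kidneys after UUO with LY2109761, at 44.8, 57.6 and 57.3 CPM after UUO and at 14.5, 16.1 and 26.5 CPM after sham surgery. For Hmox1 the fl/fl kidneys gave 54.9, 44.6 and 50.6 CPM after UUO with LY2109761, 62.5, 70 and 68 CPM after UUO and 30.5, 26.6 and 35.6 CPM after sham surgery. No obstructed library reached down to a sham library. The rise was 1.5 (SE 0.20, edgeR adjusted p = 2.3e-05) in tKO and 1.11 (SE 0.19, edgeR adjusted p = 2.6e-04) in fl/fl kidneys, and it was called whichever library was left out. Hmox1 is also a macrophage gene, and 8 of 10 macrophage markers rose in each genotype beside it; their part in the result was not tested.

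Blvrb, a biliverdin reductase that also reduces flavins, was called after obstruction in fl/fl kidneys only, and a difference between genotypes was not shown (log2 1.04, SE 0.33, edgeR adjusted p = 0.1857 for the interaction). Blvrb stood at 15.7, 19 and 15.2 CPM in tKO kidneys after UUO with LY2109761, at 19.9, 39.1 and 20.2 CPM after UUO and at 21.7, 22.6 and 16.7 CPM after sham surgery. For Blvrb the fl/fl kidneys gave 19.8, 17.2 and 15.2 CPM after UUO with LY2109761, 13.2, 14.6 and 16.7 CPM after UUO and 24.9, 25.3 and 20.8 CPM after sham surgery. The value of 39.1 CPM belongs to tKO UUO replicate 2, which also held the highest macrophage sum (2950 CPM) and 190 CPM of the macrophage marker Adgre1, against at most 35.7 CPM elsewhere. Blvrb fell in fl/fl kidneys (log2 −0.67, SE 0.23, edgeR adjusted p = 0.0290), but was not called there without fl/fl UUO replicate 1 or 2 or fl/fl sham replicate 1 or 2 (edgeR adjusted p up to 0.104), and with column totals it was 0.07. In tKO kidneys it was at 0.37 (SE 0.23, edgeR adjusted p = 0.2187). The ferritin heavy chain gene Fth1, whose product oxidises and stores iron, was lower in obstructed fl/fl kidneys. Fth1 stood at 567, 1010 and 864 CPM in tKO kidneys after UUO with LY2109761, at 762, 890 and 742 CPM after UUO and at 1870, 882 and 746 CPM after sham surgery. For Fth1 the fl/fl kidneys gave 945, 736 and 1050 CPM after UUO with LY2109761, 1300, 1010 and 1280 CPM after UUO and 2480, 2260 and 2440 CPM after sham surgery. The library labelled tKO sham replicate 1 stood apart from the other 2 of its group. Fth1 changed by −1.0 (SE 0.29, edgeR adjusted p = 0.0121) in fl/fl kidneys, not called without fl/fl UUO replicate 2 (edgeR adjusted p = 0.0563), and stood at −0.55 (SE 0.29, edgeR adjusted p = 0.1431) in tKO kidneys, or at −0.02 (edgeR adjusted p = 0.95) without the library labelled tKO sham replicate 1. The light chain gene Ftl1 was at −0.39 in tKO and 0.08 in fl/fl kidneys and passed no test; its retrocopy Ftl1-ps1 held 596 to 19991 counts per library, so reads may be divided between the 2.

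Among the genes of glutathione supply, Slc7a11 can only be described, as it passed the filter through obstructed kidneys alone. Slc7a11 (ENSMUSG00000027737, GRCm38 chromosome 3, 49892526 to 50443614), the cystine importer xCT, was nearly absent from sham kidneys. It stood at 1.55, 2.32 and 0.965 CPM in tKO kidneys after UUO with LY2109761, at 1.79, 1.34 and 1.96 CPM after UUO and at 0.0745, 0 and 0 CPM after sham surgery. For Slc7a11 the fl/fl kidneys gave 1.34, 1.45 and 1.7 CPM after UUO with LY2109761, 1.16, 1.5 and 1.18 CPM after UUO and 0, 0.592 and 0.514 CPM after sham surgery. Summed over a group, there were 118 counts in tKO UUO and 1 count in tKO sham kidneys, a depth-scaled ratio of 47.5 (95% interval 8.36 to 1890, counting error only). There were 80 counts in fl/fl UUO and 16 in fl/fl sham kidneys, a ratio of 3.45 (95% interval 2.0 to 6.32). The fitted change was 5.34 (SE 0.93, edgeR adjusted p = 2.8e-04) in tKO and 1.77 (SE 0.58, edgeR adjusted p = 0.0233) in fl/fl kidneys. The tKO value depends on the prior count and is no bound, since the sham group held 1 count. The fl/fl call was lost without fl/fl UUO replicate 2 (edgeR adjusted p = 0.0659).

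The synthesis genes fell after obstruction in both genotypes. Gclc, the catalytic subunit of glutamate-cysteine ligase and the rate-limiting step, changed by −1.53 (SE 0.28, edgeR adjusted p = 4.1e-04) in tKO and −1.39 (SE 0.28, edgeR adjusted p = 8.5e-04) in fl/fl kidneys, with means of 139 ± 33.2 CPM in tKO UUO, 400 ± 186 CPM in tKO sham, 150 ± 12.2 CPM in fl/fl UUO and 394 ± 43.9 CPM in fl/fl sham kidneys (SD, n = 3 each). Gclm (ENSMUSG00000028124, GRCm38 chromosome 3, 122245557 to 122270732), its modifier subunit and a carrier of the motif shown above, fell too. Gclm stood at 116, 116 and 94.3 CPM in tKO kidneys after UUO with LY2109761, at 107, 75.6 and 98.4 CPM after UUO and at 152, 143 and 189 CPM after sham surgery. For Gclm the fl/fl kidneys gave 136, 161 and 141 CPM after UUO with LY2109761, 147, 111 and 205 CPM after UUO and 282, 306 and 291 CPM after sham surgery. Each fl/fl sham library lay above every other library of the experiment. Gclm changed by −0.79 (SE 0.19, edgeR adjusted p = 0.0042) in tKO and −0.92 (SE 0.19, edgeR adjusted p = 0.0013) in fl/fl kidneys, and in tKO the value was 0.32 with column totals. Gss, glutathione synthetase, changed by −1.16 (SE 0.30, edgeR adjusted p = 0.0055) in tKO and −1.24 (SE 0.30, edgeR adjusted p = 0.0034) in fl/fl kidneys. Gsr, which regenerates reduced glutathione, was at 0.02 in tKO and −0.13 in fl/fl kidneys, and the glutaredoxin gene Glrx at −0.54 and −0.19; neither was called. Gclm and Gss share exonic bases with other genes (Gm17494 and Gm6061 for Gclm; Acss2, Gssos1 and Gssos2 for Gss), as do Txnrd2, Prdx2, Prdx5, Keap1, G6pdx, Ftl1 and Tkt, and how the counting treated strand is not given in the sources used here.

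Glutathione peroxidases did not move as a family. Gpx7 (ENSMUSG00000028597, GRCm38 chromosome 4, 108400390 to 108406961) and Gpx8 (ENSMUSG00000021760, GRCm38 chromosome 13, 113042753 to 113046410), which use hydrogen peroxide in the endoplasmic reticulum during disulfide formation, rose. Gpx7 stood at 17.5, 11.8 and 12 CPM in tKO kidneys after UUO with LY2109761, at 16.8, 22 and 22.1 CPM after UUO and at 3.13, 3.95 and 2.39 CPM after sham surgery. For Gpx7 the fl/fl kidneys gave 13.1, 14.1 and 11.5 CPM after UUO with LY2109761, 9.8, 13.8 and 8.79 CPM after UUO and 1.85, 1.92 and 2.19 CPM after sham surgery. Obstructed libraries began at 8.79 CPM and sham libraries ended at 3.95 CPM. Gpx7 changed by 2.66 (SE 0.24, edgeR adjusted p = 9.2e-07) in tKO and 2.44 (SE 0.24, edgeR adjusted p = 1.7e-06) in fl/fl kidneys. Gpx8 stood at 44.4, 44.9 and 33.1 CPM in tKO kidneys after UUO with LY2109761, at 47.5, 56.8 and 59.4 CPM after UUO and at 23.2, 28.2 and 19.3 CPM after sham surgery. For Gpx8 the fl/fl kidneys gave 43.3, 43.2 and 40.2 CPM after UUO with LY2109761, 32.5, 35.5 and 27.5 CPM after UUO and 22, 17.5 and 20.1 CPM after sham surgery. The tKO UUO libraries were the highest of all groups for Gpx8. Gpx8 changed by 1.2 (SE 0.17, edgeR adjusted p = 3.8e-05) in tKO and 0.68 (SE 0.16, edgeR adjusted p = 0.0037) in fl/fl kidneys. Myofibroblast markers, summed over 7 genes, moved with both: they reached 2470 to 4020 CPM in tKO UUO, 477 to 716 CPM in tKO sham, 1340 to 1670 CPM in fl/fl UUO and 199 to 314 CPM in fl/fl sham kidneys. Their part in the rise of Gpx7 and Gpx8 was not tested.

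Gpx4 (ENSMUSG00000075706, GRCm38 chromosome 10, 80047166 to 80056439), the peroxidase that reduces lipid hydroperoxides in membranes, fell. Gpx4 stood at 102, 97.5 and 95.5 CPM in tKO kidneys after UUO with LY2109761, at 77.4, 66.1 and 62.5 CPM after UUO and at 218, 112 and 74.8 CPM after sham surgery. For Gpx4 the fl/fl kidneys gave 97.2, 70.6 and 140 CPM after UUO with LY2109761, 141, 124 and 177 CPM after UUO and 328, 301 and 299 CPM after sham surgery. The fl/fl sham libraries were the highest, and the library labelled tKO sham replicate 1 lay between them and the rest of its group. Gpx4 changed by −0.98 (SE 0.30, edgeR adjusted p = 0.0165) in tKO and −1.07 (SE 0.30, edgeR adjusted p = 0.0097) in fl/fl kidneys. The tKO call was lost without tKO UUO replicate 2 or 3, or without the library labelled tKO sham replicate 1, where the value was −0.44 (edgeR adjusted p = 0.16). Its retrocopy Gpx4-ps2 held 1429 to 12309 counts per library, so the level of Gpx4 and its differences between groups are uncertain. Gpx3 (ENSMUSG00000018339, GRCm38 chromosome 11, 54902453 to 54910377), made by the proximal tubule and secreted into plasma, varied most. Gpx3 stood at 866, 1110 and 1300 CPM in tKO kidneys after UUO with LY2109761, at 506, 465 and 435 CPM after UUO and at 17000, 304 and 317 CPM after sham surgery. For Gpx3 the fl/fl kidneys gave 939, 378 and 1310 CPM after UUO with LY2109761, 14400, 2430 and 2380 CPM after UUO and 18500, 20100 and 2930 CPM after sham surgery. High and low libraries occurred in the same group: 17000 CPM beside 304 and 317 CPM in tKO sham kidneys, and 14400 CPM beside 2430 and 2380 CPM in fl/fl UUO kidneys. Gpx3 was called lower in tKO kidneys (log2 −3.65, SE 1.28, edgeR adjusted p = 0.0324), but the value turned to 0.60 (edgeR adjusted p = 0.589) without the library labelled tKO sham replicate 1. Leaving out any tKO UUO library also ended the call (edgeR adjusted p up to 0.0884). In fl/fl kidneys it was at −1.11 (SE 1.17, edgeR adjusted p = 0.4864). Gpx1, the abundant cytosolic form, was at −0.68 in tKO and −0.70 in fl/fl kidneys and was not called.

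**Figure D2:**
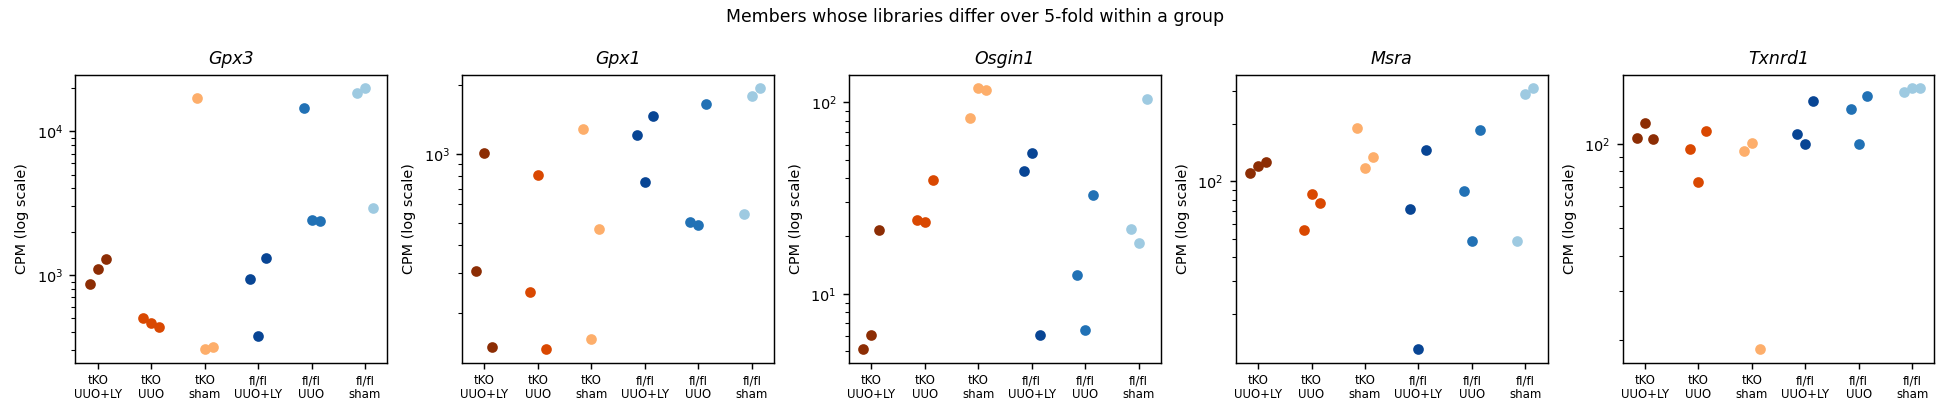
TMM-scaled CPM of each library (points, log axis) for the 5 genes whose highest and lowest library differed over 5-fold within a group: Gpx3, Gpx1, Osgin1, Msra and Txnrd1. Gpx3 ran between 304 and 17000 CPM among the 3 tKO sham libraries.

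Mitochondrial members of the thioredoxin system fell and cytosolic ones mostly did not pass. Txn2 and Txnrd2 encode the mitochondrial thioredoxin and its reductase. Txn2 stood at 72.8, 76.3 and 75.5 CPM in tKO kidneys after UUO with LY2109761, at 60.5, 69.3 and 68.9 CPM after UUO and at 89, 92.9 and 106 CPM after sham surgery. For Txn2 the fl/fl kidneys gave 82.5, 91.4 and 75 CPM after UUO with LY2109761, 72, 75 and 73.4 CPM after UUO and 105, 115 and 116 CPM after sham surgery. Sham libraries began at 89 CPM, and libraries of UUO without LY2109761 ended at 75 CPM. Txn2 changed by −0.53 (SE 0.10, edgeR adjusted p = 7.8e-04) in tKO and −0.61 (SE 0.10, edgeR adjusted p = 2.6e-04) in fl/fl kidneys, and Txnrd2 by −0.72 (SE 0.13, edgeR adjusted p = 5.3e-04) and −0.72 (SE 0.13, edgeR adjusted p = 5.3e-04), although both turned above 0 with column totals in each genotype (Txn2 0.56 in tKO and 0.13 in fl/fl, Txnrd2 0.32 and 0.03). Txn1, the cytosolic thioredoxin, was called in fl/fl kidneys only. Txn1 stood at 244, 260 and 274 CPM in tKO kidneys after UUO with LY2109761, at 259, 255 and 239 CPM after UUO and at 244, 202 and 317 CPM after sham surgery. For Txn1 the fl/fl kidneys gave 380, 346 and 319 CPM after UUO with LY2109761, 252, 219 and 312 CPM after UUO and 365, 395 and 364 CPM after sham surgery. The tKO groups overlapped, and Txn1 was at −0.02 (SE 0.16, edgeR adjusted p = 0.9458) in tKO against −0.52 (SE 0.16, edgeR adjusted p = 0.0139) in fl/fl kidneys, where it was 0.22 with column totals and was not called without fl/fl UUO replicate 2 or fl/fl sham replicate 2 (edgeR adjusted p up to 0.0767). The reductase genes Txnrd1 and Txnrd3, the sulfiredoxin gene Srxn1, which revives over-oxidised peroxiredoxins, and the methionine sulfoxide reductase gene Msra were not called in either genotype, with values from −1.02 to 0.39 in tKO and from −0.99 to 0.29 in fl/fl kidneys.

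Of the 6 peroxiredoxins, thiol peroxidases most of which draw on thioredoxin, the mitochondrial and peroxisomal Prdx5 fell most. Prdx5 stood at 444, 467 and 278 CPM in tKO kidneys after UUO with LY2109761, at 359, 420 and 548 CPM after UUO and at 1460, 1460 and 1360 CPM after sham surgery. For Prdx5 the fl/fl kidneys gave 755, 591 and 795 CPM after UUO with LY2109761, 614, 391 and 815 CPM after UUO and 2100, 2170 and 2100 CPM after sham surgery. Every sham library held at least 1360 CPM and no obstructed one over 815 CPM. Prdx5 changed by −1.69 (SE 0.25, edgeR adjusted p = 7.1e-05) in tKO and −1.81 (SE 0.25, edgeR adjusted p = 4.1e-05) in fl/fl kidneys, and shares 409 exonic bases with Trmt112 on the other strand. Prdx3, the mitochondrial form, and Prdx6, which also acts on phospholipids, changed less. Prdx3 stood at 76.7, 101 and 89.7 CPM in tKO kidneys after UUO with LY2109761, at 80.5, 67.7 and 63.2 CPM after UUO and at 119, 79.4 and 96.9 CPM after sham surgery. For Prdx3 the fl/fl kidneys gave 88.8, 79 and 94.7 CPM after UUO with LY2109761, 108, 90.3 and 109 CPM after UUO and 155, 159 and 183 CPM after sham surgery. The fl/fl sham libraries held the 3 highest levels of Prdx3. Prdx6 stood at 86.2, 130 and 102 CPM in tKO kidneys after UUO with LY2109761, at 97.9, 83 and 87.5 CPM after UUO and at 147, 118 and 113 CPM after sham surgery. For Prdx6 the fl/fl kidneys gave 126, 104 and 129 CPM after UUO with LY2109761, 137, 116 and 143 CPM after UUO and 225, 202 and 199 CPM after sham surgery. The same 3 libraries were highest for Prdx6. Prdx3 was called in tKO (−0.48, edgeR adjusted p = 0.0220) and fl/fl kidneys (−0.70, edgeR adjusted p = 0.0022), and so was Prdx6 (−0.49 with edgeR adjusted p = 0.0179, and −0.66 with edgeR adjusted p = 0.0028). With column totals these values turned to 0.55 and 0.04 for Prdx3 and to 0.52 and 0.08 for Prdx6. The tKO calls of both were lost without tKO UUO replicate 2 or 3 or the library labelled tKO sham replicate 1, where Prdx3 was at −0.31 (edgeR adjusted p = 0.125) and Prdx6 at −0.36 (edgeR adjusted p = 0.0875). The cytosolic Prdx2 rose slightly in tKO kidneys (log2 0.35, SE 0.12, edgeR adjusted p = 0.0268), a call lost without tKO UUO replicate 1 or 2 or tKO sham replicate 2 or 3 (edgeR adjusted p up to 0.103). In fl/fl kidneys Prdx2 was at −0.09 (edgeR adjusted p = 0.5967). Prdx1 (cytosolic) and Prdx4 (endoplasmic reticulum) were not called.

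Of the 3 superoxide dismutase genes and the catalase gene, all 4 fell in tKO and 3 in fl/fl kidneys. Sod1 (ENSMUSG00000022982, GRCm38 chromosome 16, 90220754 to 90226329), the copper-zinc enzyme of the cytosol, had the largest change of the 4 in fl/fl kidneys. Sod1 stood at 132, 176 and 123 CPM in tKO kidneys after UUO with LY2109761, at 172, 167 and 167 CPM after UUO and at 641, 459 and 445 CPM after sham surgery. For Sod1 the fl/fl kidneys gave 250, 242 and 218 CPM after UUO with LY2109761, 172, 130 and 271 CPM after UUO and 753, 840 and 815 CPM after sham surgery. Sham and obstructed libraries did not overlap in either genotype. Sod1 changed by −1.61 (SE 0.22, edgeR adjusted p = 4.0e-05) in tKO and −2.07 (SE 0.23, edgeR adjusted p = 4.8e-06) in fl/fl kidneys. Sod2 stood at 89, 110 and 105 CPM in tKO kidneys after UUO with LY2109761, at 84.6, 63 and 71.6 CPM after UUO and at 205, 198 and 253 CPM after sham surgery. For Sod2 the fl/fl kidneys gave 114, 103 and 84.4 CPM after UUO with LY2109761, 93.8, 87.6 and 116 CPM after UUO and 283, 291 and 293 CPM after sham surgery. Sod2, the manganese enzyme of mitochondria, likewise showed no overlap. Sod2 changed by −1.58 (SE 0.16, edgeR adjusted p = 2.1e-06) in tKO and −1.54 (SE 0.16, edgeR adjusted p = 2.4e-06) in fl/fl kidneys. Cat (ENSMUSG00000027187, GRCm38 chromosome 2, 103453849 to 103485160) encodes catalase, the peroxisomal enzyme that splits hydrogen peroxide. Cat stood at 225, 331 and 285 CPM in tKO kidneys after UUO with LY2109761, at 191, 183 and 202 CPM after UUO and at 579, 524 and 806 CPM after sham surgery. For Cat the fl/fl kidneys gave 295, 288 and 296 CPM after UUO with LY2109761, 430, 290 and 365 CPM after UUO and 987, 1010 and 957 CPM after sham surgery. The 3 fl/fl sham libraries were the highest and the 3 tKO UUO libraries the lowest. Cat changed by −1.73 (SE 0.18, edgeR adjusted p = 3.2e-06) in tKO and −1.44 (SE 0.18, edgeR adjusted p = 1.4e-05) in fl/fl kidneys. Sod3, the extracellular form, was called in tKO kidneys. Sod3 stood at 274, 276 and 309 CPM in tKO kidneys after UUO with LY2109761, at 195, 180 and 201 CPM after UUO and at 308, 318 and 360 CPM after sham surgery. For Sod3 the fl/fl kidneys gave 314, 317 and 324 CPM after UUO with LY2109761, 455, 301 and 426 CPM after UUO and 518, 498 and 475 CPM after sham surgery. Libraries of tKO UUO were lowest here too. Sod3 changed by −0.78 (SE 0.14, edgeR adjusted p = 3.0e-04) in tKO kidneys, but was 0.31 with column totals, and stood at −0.33 (SE 0.13, edgeR adjusted p = 0.0599) in fl/fl kidneys.

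**Figure D3:**
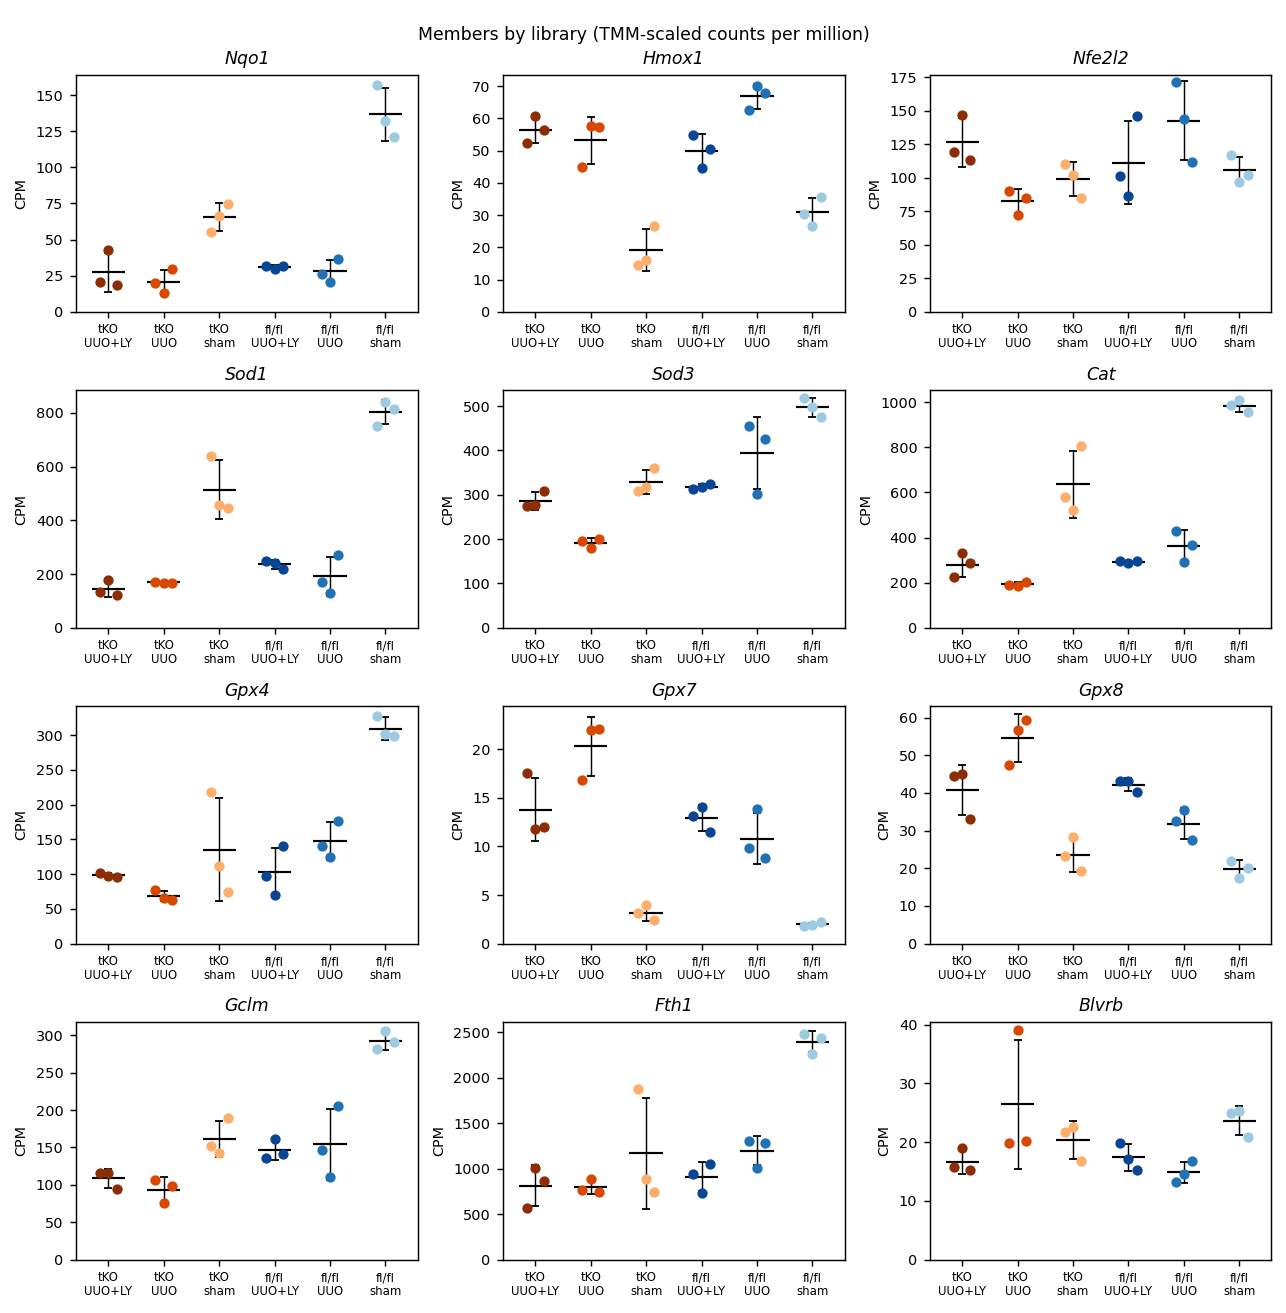
TMM-scaled CPM of 12 genes in each library (points) for the 6 groups, with the mean (line) and SD (bar) of 3 libraries. Nqo1, Sod1 and Cat were highest in sham kidneys, Gpx7, Gpx8 and Hmox1 in obstructed ones, and Cat and Sod3 reached their lowest levels in tKO UUO kidneys.

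The pentose phosphate genes G6pdx and Pgd, which make NADPH, and Taldo1 and Tkt, which recycle its sugars, were called in neither genotype. Their changes ran from −0.01 to 0.19 in tKO and from −0.16 to 0.31 in fl/fl kidneys. Group means over the 6 groups were 35.9 to 50.3 CPM for G6pdx, 117 to 172 CPM for Pgd, 184 to 259 CPM for Taldo1 and 166 to 239 CPM for Tkt.

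Leaving out each library in turn, 4 of the 5 higher and 11 of the 15 lower calls in tKO kidneys were kept in all 6 fits, and 3 of 4 higher and 13 of 16 lower calls in fl/fl kidneys. The 4 kept higher calls in tKO kidneys include Slc7a11, which passed the filter through obstructed kidneys alone and supports nothing. The calls kept in every such fit in both genotypes were those of Gpx7, Gpx8, Hmox1, Cat, Gclc, Gclm, Gss, Nqo1, Prdx5, Sod1, Sod2, Txn2 and Txnrd2. The share of mitochondrially encoded counts and the proximal tubule sum moved with the fall: 11 of 12 proximal tubule markers fell in tKO and 10 of 12 in fl/fl kidneys. With mitochondrially encoded genes removed from counts and library sizes, the counts of calls were the same (5 and 15 in tKO, 4 and 16 in fl/fl kidneys). Erythroid markers fell in 6 of 6 tested cases in both genotypes. Removing the mitochondrially encoded genes checks the scaling only. The part of the mitochondrial share and of the proximal tubule and erythroid markers in the result was not tested. Whether the response to obstruction differed by genotype was tested as an interaction, in which 0 of the 40 genes passed higher and 0 lower, where 0.0104% of all tested genes were higher and 0.0312% lower. At an unadjusted p under 0.05 there were 9 of the 40, a count not made over all genes. DESeq2 called 0 of the 40 in either direction, and 234 higher and 197 lower of all genes. Without the library labelled tKO sham replicate 1, edgeR called 1 of the 40 higher, and 216 higher and 77 lower of all genes. With all libraries the smallest p belonged to Prdx4 (log2 0.80, SE 0.25, edgeR adjusted p = 0.1841) and Blvrb (log2 1.04, SE 0.33, edgeR adjusted p = 0.1857). So Txn1, Fth1, Blvrb, Gpx3, Sod3 and Prdx2, called in 1 genotype only, were not shown to differ between genotypes.

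Kidneys of tKO mice were then compared with fl/fl kidneys under each treatment. After sham surgery 4 of 6 peroxiredoxins and 2 of 6 glutathione supply genes were lower in tKO kidneys. Gpx4 (lipid peroxide removal), Nqo1 (quinone reduction) and Fth1 (iron storage) were lower as single genes. Reads of Gpx4 may be divided with its retrocopy Gpx4-ps2 (1429 to 12309 counts per library), so its difference is uncertain. The other ferritin gene, Ftl1, was not lower, at 770 ± 317 CPM in tKO and 587 ± 92.7 CPM in fl/fl sham kidneys (SD, n = 3 each). Of the 40 genes 0 rose and 13 fell, where 5.76% of all tested genes rose and 6.57% fell. Their median difference was −0.55, against 0.03 over all genes. The members called lower were Gpx4 at −1.19 (SE 0.30, edgeR adjusted p = 0.0212), Nqo1 at −1.06 (SE 0.32, edgeR adjusted p = 0.0394), Fth1 at −1.04 (SE 0.29, edgeR adjusted p = 0.0313) and Gclm at −0.86 (SE 0.19, edgeR adjusted p = 0.0143). Prdx3 was at −0.75 (SE 0.16, edgeR adjusted p = 0.0112), Prdx6 at −0.73 (SE 0.15, edgeR adjusted p = 0.0117), Gsr at −0.72 (SE 0.17, edgeR adjusted p = 0.0174) and Hmox1 at −0.71 (SE 0.19, edgeR adjusted p = 0.0280). Cat was at −0.63 (SE 0.18, edgeR adjusted p = 0.0311), Sod3 at −0.60 (SE 0.14, edgeR adjusted p = 0.0145), Txn1 at −0.56 (SE 0.16, edgeR adjusted p = 0.0304) and Prdx2 at −0.42 (SE 0.12, edgeR adjusted p = 0.0334), and Prdx4 at −0.60 (SE 0.18, edgeR adjusted p = 0.0389). For Nqo1 the tKO sham libraries ended at 74.6 CPM and the fl/fl sham libraries began at 121 CPM, and for Gclm the tKO sham libraries ended at 189 CPM and the fl/fl sham libraries began at 282 CPM. The sham groups did not overlap in 22 of the 40 genes (55%) and in 30.3% of all tested genes. No member rose; the highest values were 1.13 for Osgin1 (edgeR adjusted p = 0.3674) and 0.69 for Gpx7 (edgeR adjusted p = 0.0772).

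Gsr stood at 92.3, 107 and 93 CPM in tKO kidneys after UUO with LY2109761, at 79, 67.5 and 115 CPM after UUO and at 95.1, 73 and 89.1 CPM after sham surgery. For Gsr the fl/fl kidneys gave 111, 98.4 and 119 CPM after UUO with LY2109761, 128, 121 and 138 CPM after UUO and 123, 149 and 152 CPM after sham surgery. For Gsr, all 3 tKO sham libraries were below all 3 fl/fl sham ones. Prdx4 stood at 16.1, 15 and 14.9 CPM in tKO kidneys after UUO with LY2109761, at 15.3, 19.8 and 16.5 CPM after UUO and at 15.4, 11.4 and 10.8 CPM after sham surgery. For Prdx4 the fl/fl kidneys gave 15.3, 16.1 and 17.7 CPM after UUO with LY2109761, 12.6, 15.1 and 17.2 CPM after UUO and 15.9, 19.1 and 22.4 CPM after sham surgery. Prdx4 is low everywhere, and its lowest library is in the tKO sham group. Prdx2 stood at 186, 177 and 161 CPM in tKO kidneys after UUO with LY2109761, at 199, 202 and 189 CPM after UUO and at 185, 140 and 136 CPM after sham surgery. For Prdx2 the fl/fl kidneys gave 222, 197 and 200 CPM after UUO with LY2109761, 187, 195 and 199 CPM after UUO and 200, 196 and 222 CPM after sham surgery. Levels of Prdx2 lay between 136 and 222 CPM and were lowest in tKO sham replicates 2 and 3. Slc7a11 had 1 count in the 3 tKO sham libraries and 16 in the 3 fl/fl sham libraries, a ratio of 0.0961 (95% interval 0.00229 to 0.618, counting error only), and was not called (edgeR adjusted p = 0.0758).

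The sham difference depends on few libraries. Leaving out the library labelled tKO sham replicate 1 gave 17 lower genes. In that fit Nqo1 (−0.96, edgeR adjusted p = 0.077), Hmox1 (−0.55, edgeR adjusted p = 0.0615) and Cat (−0.57, edgeR adjusted p = 0.0536) were no longer called, Gpx4 was at −1.73 and Fth1 at −1.56, and Gpx3 (−5.48), Prdx1 (−1.6), Txnrd1 (−1.38), Sod1 (−0.83), Taldo1 (−0.61), Tkt (−0.56) and Pgd (−0.38) were called lower as well. Without tKO sham replicate 2 there were 0 lower genes and without tKO sham replicate 3 there were 8. Without fl/fl sham replicate 1, 2 or 3 there were 7, 5 and 4. Over all genes 1266 were lower with every library kept. Such lower calls were 2358, 210 and 556 without tKO sham replicate 1, 2 or 3. They were 715, 416 and 490 without fl/fl sham replicate 1, 2 or 3. A fit on the 2 groups alone called 0 of the 40 (and 3 genes higher and 3 lower of all), and none of the 13 calls was kept in all 6 fits that left out a library. The median over the 40 genes stayed between −0.57 and −0.43 in those 6 fits. The mitochondrial share was 33.7% to 69.5% in tKO sham and 30.8% to 35.5% in fl/fl sham libraries, and with mitochondrially encoded genes removed 13 genes were again lower. Myofibroblast markers were called higher in tKO sham kidneys in 5 of 7 cases and proximal tubule markers lower in 3 of 12. The part of these markers and of the mitochondrial share was not tested.

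After obstruction 3 of the 40 genes rose and 9 fell in tKO against fl/fl kidneys, where 8.27% of all tested genes rose and 9.65% fell. The endoplasmic reticulum peroxidases Gpx7 and Gpx8 were higher, with Blvrb, and Nfe2l2, the extracellular dismutase, catalase, Gpx4 and glutathione genes were lower. The retrocopy of Gpx4 leaves its difference uncertain here too. The median difference was −0.40, against 0.05 over all genes. Gpx7 was at 0.91 (SE 0.22, edgeR adjusted p = 0.0117), Blvrb at 0.83 (SE 0.23, edgeR adjusted p = 0.0229) and Gpx8 at 0.78 (SE 0.16, edgeR adjusted p = 0.0065). Gpx4 was at −1.10 (SE 0.30, edgeR adjusted p = 0.0220), Sod3 at −1.04 (SE 0.14, edgeR adjusted p = 7.1e-04), Cat at −0.91 (SE 0.18, edgeR adjusted p = 0.0046) and Nfe2l2 at −0.79 (SE 0.20, edgeR adjusted p = 0.0141). Gclm was at −0.72 (SE 0.19, edgeR adjusted p = 0.0197), Gsr at −0.57 (SE 0.17, edgeR adjusted p = 0.0312), Prdx6 at −0.56 (SE 0.15, edgeR adjusted p = 0.0228), Prdx3 at −0.54 (SE 0.16, edgeR adjusted p = 0.0283) and Pgd at −0.36 (SE 0.11, edgeR adjusted p = 0.0302). Pgd stood at 129, 125 and 130 CPM in tKO kidneys after UUO with LY2109761, at 127, 134 and 140 CPM after UUO and at 127, 123 and 102 CPM after sham surgery. For Pgd the fl/fl kidneys gave 155, 138 and 162 CPM after UUO with LY2109761, 161, 166 and 188 CPM after UUO and 153, 146 and 141 CPM after sham surgery. For Pgd and Nfe2l2 all 3 tKO UUO libraries lay below all 3 fl/fl UUO ones. The UUO groups did not overlap in 21 of the 40 genes (52.5%) and in 42.4% of all tested genes. Gpx3 gave the largest value, −3.77, with 435 to 506 CPM in tKO and 2380 to 14400 CPM in fl/fl UUO libraries, but did not pass (SE 1.29, edgeR adjusted p = 0.0543).

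Of these 9 lower genes, Cat, Gclm, Gpx4, Gsr, Prdx3, Prdx6 and Sod3 had also been lower in tKO sham kidneys. They make 77.8% of the list after obstruction and 53.8% of the sham list. The 2 comparisons share no library, but none of the 13 sham calls was kept in all 6 fits that left out a library. The same overlap among all tested genes was not computed. The calls of Gpx8, Cat and Sod3 were kept whichever library was left out. In total, the number of lower genes was 2, Cat and Sod3, without tKO UUO replicate 2 or fl/fl UUO replicate 1, 3 without fl/fl UUO replicate 3 and 5 without tKO UUO replicate 3, and the number of higher genes was 1, Gpx8, without fl/fl UUO replicate 1. Over all genes the lower calls went from 1858 to 934, 872, 1239 and 987 in these fits, in the order given. The higher calls went from 1593 to 488 without fl/fl UUO replicate 1. With column totals 0 were higher and 2 lower, where 365 of all genes were higher and 317 lower. Blvrb was at 0.43 (edgeR adjusted p = 0.131) without tKO UUO replicate 2, the library with the high macrophage sum. Without tKO UUO replicate 2, 0 of 10 macrophage markers were called. With it, markers of macrophages (3 of 10), neutrophils (3 of 4) and myofibroblasts (3 of 7) were called higher, and those of the proximal tubule (4 of 12) lower, in tKO obstructed kidneys. The mitochondrial share was 9.88% to 16.2% in tKO UUO and 7.43% to 7.67% in fl/fl UUO libraries, and with mitochondrially encoded genes removed 3 genes were higher and 11 lower. The part of the mitochondrial share and of the cell type markers in the result was not tested.

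**Figure D4:**
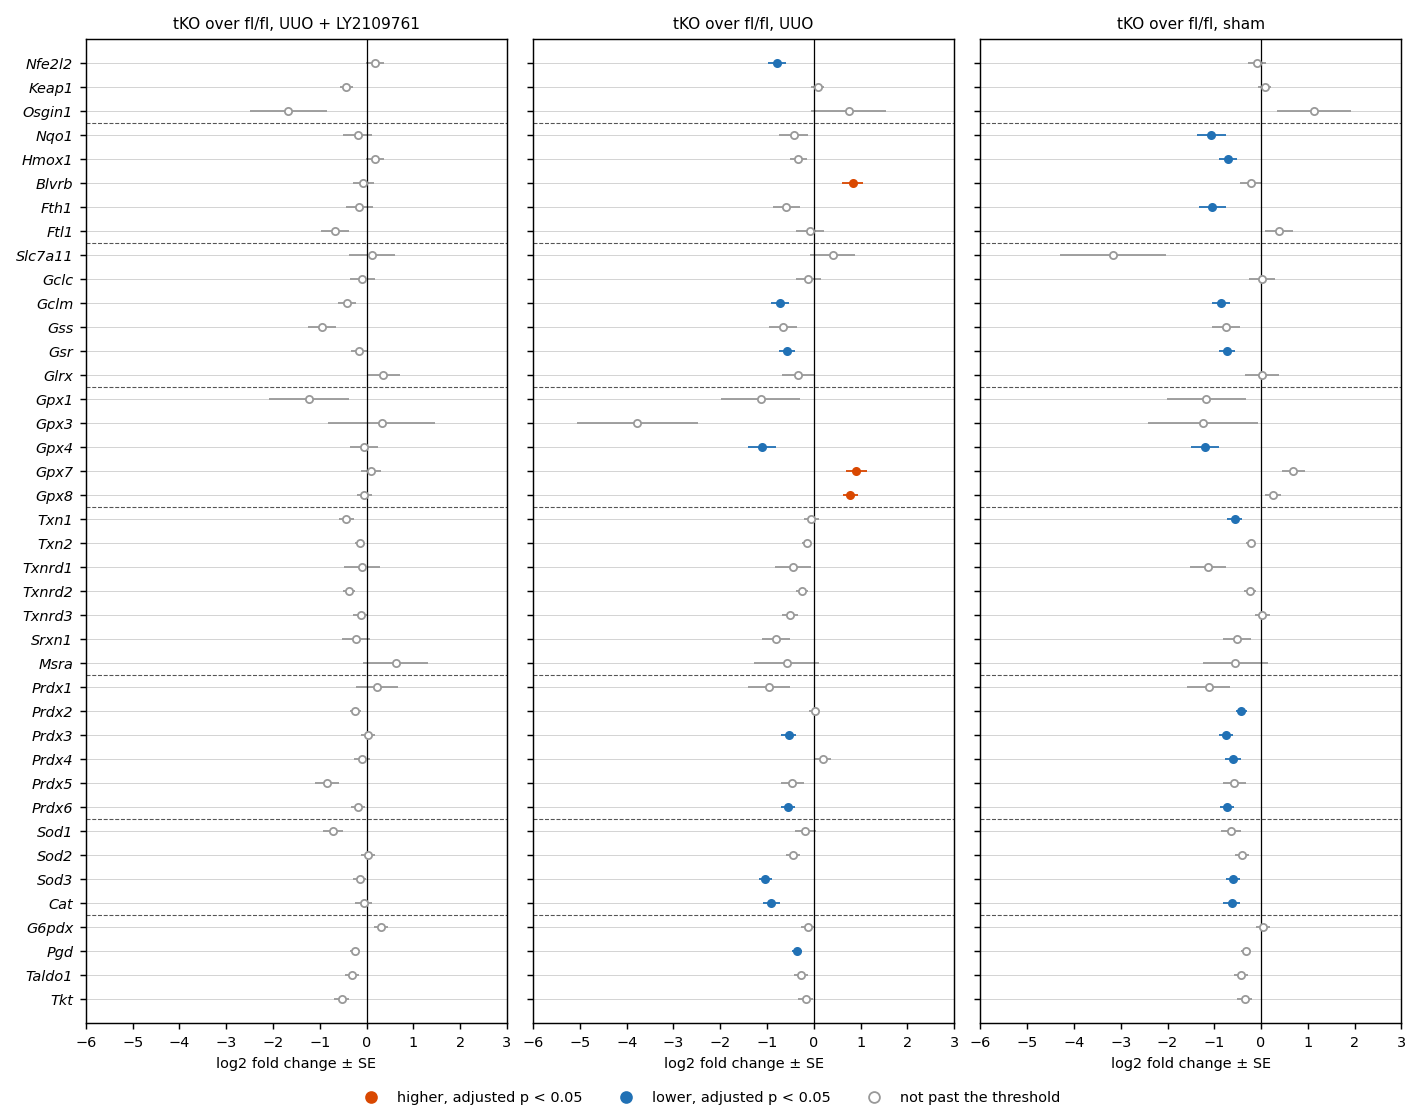
Log2 fold change of tKO over fl/fl kidneys for the 40 genes after UUO with LY2109761 (left), UUO (middle) and sham surgery (right), from edgeR on 3 libraries a group, with bars of 1 standard error. Filled points passed an adjusted p of 0.05: 0 with LY2109761, 3 higher and 9 lower after UUO, and 13 lower after sham surgery.

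With LY2109761 no genotype difference was called. In tKO against fl/fl kidneys after UUO with LY2109761, 0 of the 40 genes passed in edgeR, where 0.888% of all tested genes rose and 2.09% fell. At an unadjusted p under 0.05 there were 10 of the 40, a count not made over all genes. DESeq2 called 5 of the 40 lower, and 553 higher and 937 lower of all genes. The median difference was −0.15, against 0.02 over all genes. Values ran from −1.67 for Osgin1 to 0.62 for Msra, and the smallest adjusted p was that of Prdx5 (log2 −0.85, SE 0.25, edgeR adjusted p = 0.0733). Again 0 of the 40 genes passed without the library labelled fl/fl UUO with LY2109761 replicate 3, with a median difference of −0.23. LY2109761 itself was compared with DMSO in obstructed kidneys. In tKO kidneys 0 of the 40 genes passed, where 0.0831% of all tested genes rose and 0.0883% fell. At an unadjusted p under 0.05 there were 11 of the 40, again not counted over all genes. DESeq2 called 1 of the 40 higher and 1 lower, and 438 higher and 508 lower of all genes. The smallest adjusted p was that of Sod3 (log2 0.58, SE 0.13, edgeR adjusted p = 0.0828). In fl/fl kidneys 0 passed as well, where 2.52% of all tested genes rose and 2.62% fell, with 5 of the 40 at an unadjusted p under 0.05. DESeq2 called 1 of the 40 lower, and 946 higher and 1111 lower of all genes. The largest fl/fl value was that of Gpx3 (log2 −2.87, SE 1.24, edgeR adjusted p = 0.1828), whose fl/fl UUO libraries include the single high value of 14400 CPM. Leaving out the library labelled fl/fl UUO with LY2109761 replicate 3 again gave 0 of the 40 in fl/fl kidneys, with a median of 0.01.

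The difference between the LY2109761 effects of the 2 genotypes was tested directly. Of the 40 genes 3 had a higher and 1 a lower effect in tKO than in fl/fl kidneys, where 7.05% of all tested genes were called higher and 6.8% lower. The 3 were Nfe2l2 (interaction log2 0.97, SE 0.28, edgeR adjusted p = 0.0306), Sod3 (log2 0.88, SE 0.19, edgeR adjusted p = 0.0091) and Cat (log2 0.85, SE 0.25, edgeR adjusted p = 0.0345). Each stood above 0 in tKO kidneys (Nfe2l2 0.62, Sod3 0.58, Cat 0.55) and below 0 in fl/fl kidneys (−0.36, −0.31 and −0.30), and none of these 6 effects passed on its own. For Sod3 and Cat all 3 tKO libraries with LY2109761 lay above all 3 tKO libraries with DMSO, as they did for Nfe2l2. Those 2 groups did not overlap in 15 of the 40 genes (37.5%) and in 25.6% of all tested genes. Gpx8 had the lower effect (log2 −0.82, SE 0.23, edgeR adjusted p = 0.0286), at −0.42 in tKO and 0.41 in fl/fl kidneys. These 4 genes are also 4 of the 12 called between genotypes after UUO, and both tests use the same UUO libraries. The call of Sod3 was kept without each of the 12 libraries (0.77 to 1.05, edgeR adjusted p up to 0.0301). The number of higher genes was 1 without tKO UUO replicate 2 or 3, tKO UUO with LY2109761 replicate 2, fl/fl UUO with LY2109761 replicate 1, fl/fl UUO replicate 1 or the library labelled fl/fl UUO with LY2109761 replicate 3, and 0 genes passed in either direction with column totals. Over all genes the higher calls went from 1357 to between 714 and 934 in those fits. Column totals left 164 of all genes higher and 125 lower. Without the library labelled fl/fl UUO with LY2109761 replicate 3, Sod3 was at 0.88 (edgeR adjusted p = 0.0267). Cat (0.84, edgeR adjusted p = 0.0777), Nfe2l2 (0.82, edgeR adjusted p = 0.083) and Gpx8 (−0.81, edgeR adjusted p = 0.067) were not called in that fit. The shares of the 40 genes called, 7.5% higher and 2.5% lower, are near or below those of all genes, so nothing particular to the 40 is read from them. Myofibroblast markers had a lower effect in 4 of 7 cases and proximal tubule markers a higher effect in 4 of 12; their part was not tested.

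**Figure D5:**
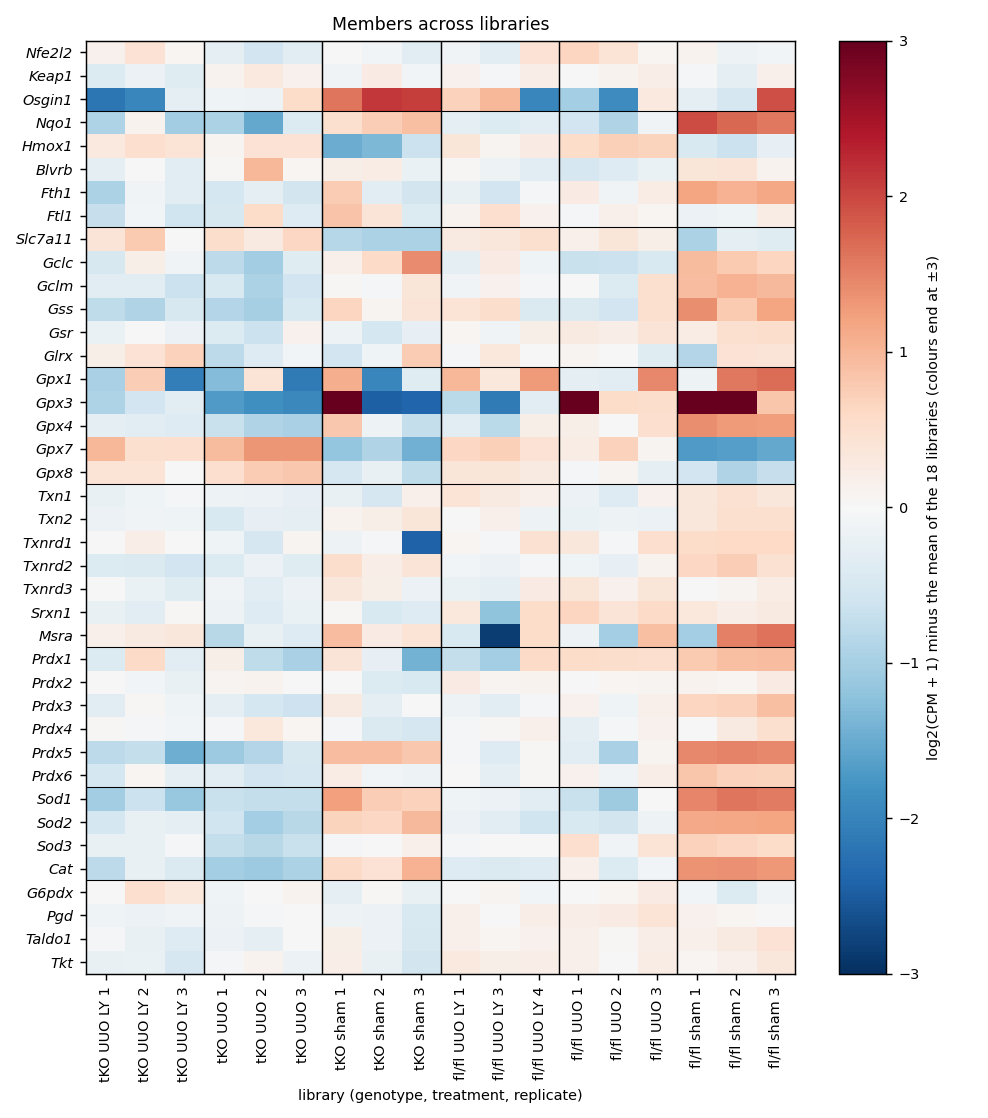
Log2(CPM + 1) of the 40 genes (rows, by role) in the 18 libraries (columns, 3 for each of 6 groups), as the difference from each gene's mean over all libraries, with colours ending at ±3. The sham columns of Nqo1, Sod1, Cat and Prdx5 are high and those of Gpx7 low, and the 17000 CPM of Gpx3 in the library labelled tKO sham replicate 1 stands out in its group.

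Other genes of the same pathways were taken from lists made with earlier results of these data known. Their counts are read against the shares of all tested genes called: 21.6% higher and 19.4% lower after UUO in tKO, 20.9% and 18.7% after UUO in fl/fl, 8.27% and 9.65% in tKO against fl/fl UUO kidneys, and 5.76% and 6.57% in tKO against fl/fl sham kidneys. Lists of so few genes with counts near these shares are described only. Subunits of the superoxide-producing NADPH oxidase rose after obstruction in 5 of 7 tested cases in both genotypes, with Cyba called lower in fl/fl kidneys. Cybb, the catalytic subunit of phagocytes, was at 56.4 ± 17.1 CPM in tKO UUO, 6.63 ± 2.75 CPM in tKO sham, 29.4 ± 1.99 CPM in fl/fl UUO and 4.74 ± 0.843 CPM in fl/fl sham kidneys (SD, n = 3 each). It rose by 3.13 in tKO and 2.63 in fl/fl kidneys, beside the cytosolic subunit genes Ncf1 (3.85 and 3.74) and Ncf4 (3.60 and 2.99). In tKO against fl/fl obstructed kidneys 5 of the 7 were higher, among them Ncf4 at 1.32, Rac2 at 2.23, Ncf1 at 1.32 and Cybb at 0.94. In that comparison 1 library held the highest level of each of these 4, by the widest margin for Rac2. Rac2 stood at 56.2, 404 and 55.9 CPM in tKO UUO against 36.5, 43.4 and 29.7 CPM in fl/fl UUO kidneys, and Ncf1 at 32.4, 88.7 and 29.9 CPM against 19.1, 24.7 and 16.7 CPM. The high values belong to tKO UUO replicate 2, the library with the highest macrophage sum. For all 4 genes tKO UUO replicates 1 and 3 also lay above every fl/fl UUO library. Cybb stood there at 50.3 and 43.1 CPM, against at most 31.4 CPM. Without tKO UUO replicate 2 none of these 4 was called: Ncf4 was at 0.70 (edgeR adjusted p = 0.0881), Rac2 at 0.62 (edgeR adjusted p = 0.189), Ncf1 at 0.63 (edgeR adjusted p = 0.2) and Cybb at 0.67 (edgeR adjusted p = 0.146). Of 8 subunit genes tested in that fit, 1 was called higher. Against tKO sham kidneys these 4 were still called without tKO UUO replicate 2, at 2.7 to 3.16.

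Of 22 tested genes of haem and iron handling, 5 rose and 6 fell after obstruction in tKO and 5 rose and 5 fell in fl/fl kidneys. The iron oxidase ceruloplasmin gene Cp reached 508 ± 30.7 CPM in tKO UUO against 55.3 ± 10.3 CPM in tKO sham kidneys, while fl/fl kidneys held 499 ± 57.5 CPM after UUO against 61.7 ± 19 CPM after sham surgery (SD, n = 3 each). It rose by 3.2 and 3.02. The phagosomal iron transporter gene Slc11a1 rose by 3.25 and 3.13 and the iron exporter gene Slc40a1 by 1.26 and 1.42. The metal importer gene Slc39a8 was at −2.23 and −2.70. Ncoa4, the receptor that carries ferritin to lysosomes, was lower in tKO than in fl/fl obstructed kidneys (log2 −1.75, SE 0.22, edgeR adjusted p = 6.7e-04), with 4.78 ± 1.19 CPM in tKO UUO and 16.1 ± 2.51 CPM in fl/fl UUO kidneys. Aco1, the iron-sensing cytosolic aconitase, was lower there too (log2 −1.01, SE 0.12, edgeR adjusted p = 5.7e-04), and both were called without tKO UUO replicate 2. With LY2109761 Ncoa4 fell in fl/fl obstructed kidneys (−1.40), and its interaction was 2.35 (SE 0.30, edgeR adjusted p = 0.0013). Without the library labelled fl/fl UUO with LY2109761 replicate 3 these were −1.23 (edgeR adjusted p = 0.0627) and 2.18 (edgeR adjusted p = 0.0040).

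Of 27 other NRF2 targets and phase 2 enzymes, 2 rose and 8 fell after obstruction in tKO and 4 rose and 9 fell in fl/fl kidneys. The aldose reductase family gene Akr1b8 reached 51.9 ± 11.7 CPM in tKO UUO against 8.14 ± 4.46 CPM in tKO sham kidneys, while fl/fl kidneys held 47.1 ± 9.36 CPM after UUO against 3.15 ± 2.01 CPM after sham surgery. It rose by 2.63 and 3.89, while the glutathione transferase gene Gstm2 was at −2.55 and −2.37 and the organic anion exporter gene Abcc2 at −2.01 and −1.47. In tKO against fl/fl kidneys 5 fell after UUO, among them the glutathione transferases Gsta2 (−1.53), Gsta3 (−2.07) and Gsta1 (−1.91) and the malic enzyme gene Me1 (−1.04). After sham surgery 4 rose and 5 fell, among them Gsta2 (−1.34) and Gsta1 (−1.99) lower and Abcc3 (1.36) higher. Gsta1 and Gsta2 are near-identical copies, so their counts are uncertain. Without the library labelled tKO sham replicate 1, 2 rose and 8 fell after obstruction in tKO, and 4 rose and 7 fell in tKO against fl/fl sham kidneys.

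Glutathione turnover gave 3 higher and 5 lower of 13 genes after obstruction in tKO and 4 higher and 7 lower in fl/fl kidneys. Ggt1, the brush border enzyme that breaks down glutathione, fell by 2.68 on the log2 scale in tKO and by 2.29 in fl/fl kidneys, the glyoxalase gene Hagh by 0.97 and 1.28 and Ggct by 1.68 and 1.49, while the transferase gene Gsto1 rose by 0.91 and 1.24. Of 11 regulators of NRF2, 2 rose and 2 fell in tKO and 3 rose and 1 fell in fl/fl kidneys. The small MAF gene Maff rose by 3.16 in tKO and 3.35 in fl/fl kidneys, and Cul3, the ubiquitin ligase scaffold used by KEAP1, was lower in tKO than in fl/fl obstructed kidneys (−0.55), as was the autophagy receptor gene Sqstm1 (−0.63); neither was called without tKO UUO replicate 2 (−0.50, edgeR adjusted p = 0.0784, and −0.56, edgeR adjusted p = 0.127). Of 11 genes of methionine sulfoxide reduction and the wider thioredoxin system, 3 rose and 3 fell in tKO and 2 rose and 3 fell in fl/fl kidneys, with Msrb2 at −1.09 and −1.26 and Selenow at 1.37 and 0.77. Of 7 tested ferroptosis genes, 3 rose and 2 fell in tKO and 1 rose and 1 fell in fl/fl kidneys. Gch1, which starts tetrahydrobiopterin synthesis, rose by 2.19 and 1.68, and the cytochrome P450 reductase gene Por was at −1.47 and −1.48. Without the library labelled tKO sham replicate 1 the tKO counts were 2 higher and 5 lower for glutathione turnover, 2 and 2 for NRF2 regulators, 4 and 2 for methionine sulfoxide reduction and the thioredoxin system, 3 and 1 for ferroptosis, 5 and 6 for haem and iron handling and 5 and 1 for the NADPH oxidase.

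The shorter lists of the series hold few of these genes. The list for HK-2 cells has 379 genes, each at least 2.0-fold apart between group means of FPKM, and SLC7A11 (ENSG00000151012, GRCh38 chromosome 4, 138164097 to 138242349) is the only human counterpart of the 40 in it. SLC7A11 stood at 3.63, 3.55 and 4.28 FPKM in PCMT1 KO cells and at 1.72, 1.98 and 1.57 FPKM in wild-type cells, means of 3.82 ± 0.4 FPKM and 1.76 ± 0.207 FPKM (SD, n = 3 each). The 2 groups did not overlap. Related genes in that list were NFE2L3, an NRF2 relative (2.22 ± 0.147 FPKM in PCMT1 KO and 5.75 ± 0.259 FPKM in wild-type cells), the carbonyl reductase gene CBR3 (3.63 ± 0.817 FPKM and 13.0 ± 3.35 FPKM) and the iron exporter gene SLC40A1 (2.32 ± 0.246 FPKM and 0.818 ± 0.259 FPKM). The list for kidneys of Pcmt1 KO and wild-type mice has 410 genes, each at least 1.5-fold apart, and none of the 40; haptoglobin (Hp), which binds free haemoglobin, stood at 1.55 ± 0.472 FPKM in Pcmt1 KO and 4.05 ± 2.42 FPKM in wild-type kidneys (SD, n = 4 each). Both lists were chosen on the libraries they describe, so no test was made.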

How the data were processed

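Kidney RNA of Pcmt1 tKO and Pcmt1 fl/fl mice was sequenced in 18 libraries. The authors deposited raw read counts and FPKM (counts per gene length and depth) for each library, and shorter lists for HK-2 cells and for Pcmt1 KO kidneys. Tools named in the submitters' processing notes are HISAT2, StringTie and fastp, with the builds GRCm38/mm10 and GRCh38/hg38; annotation, counting mode and strand are not given in the sources used here. For nearly all genes the locus column of the deposited count table was not GRCm38, so positions come from the GENCODE M21 annotation of GRCm38, matched by gene identifier. Columns that belong to no listed sample numbered 0.

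Counts were filtered with filterByExpr, scaled by TMM and tested with edgeR 4.0.16 (quasi-likelihood, 1 model of 6 groups over all 18 libraries, 12 residual degrees of freedom) in R 4.3.3, with Benjamini-Hochberg adjustment over all tested genes and a threshold of 0.05. CPM were computed from the same counts, and FPKM were used only for levels between genes. The scripts were tested on simulated data. Alternatives were RLE scaling, column totals, mitochondrially encoded genes left out, no filter, DESeq2 1.42.0, a fit on the compared groups alone, a replicate block and each library left out in turn; for the other gene lists, leaving out 3 libraries 1 at a time was added after seeing the data. No pairing of samples by replicate number was seen, which does not exclude one. Intervals of summed counts are exact, at 95%, and cover counting error only. Library totals bound precision: a gene at 1 CPM has few counts. Promoters come from RefSeq (GRCm38.p6).

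The 40 genes and the other lists were chosen with earlier results of these data known. Every member is named; in each comparison those past the threshold are given with log2 change, SE and adjusted p where they number 12 or fewer, otherwise the 12 with the smallest p, and up to 4 genes of each other list. Some items are not reported here.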

Additional observations from a re-analysis of the deposited data

Results flagged for a closer look

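In 4 genes the effect of LY2109761 in obstructed kidneys differed between tKO and fl/fl kidneys by a test of the difference itself, the genotype by LY2109761 interaction in edgeR. For Sod3 the interaction was 0.88 on the log2 scale (edgeR adjusted p = 0.0091), for Cat 0.85 (edgeR adjusted p = 0.0345), for Nfe2l2 0.97 (edgeR adjusted p = 0.0306) and for Gpx8 −0.82 (edgeR adjusted p = 0.0286). In Sod3, Cat and Nfe2l2 all 3 tKO libraries with LY2109761 were above all 3 tKO libraries with DMSO, and in Gpx8 all 3 were below. These 2 groups did not overlap in 25.6% of all tested genes. The call of Sod3 was kept without each of 12 libraries, that of Cat in 3 of 12 cases, and those of Nfe2l2 and Gpx8 in 5 of 12 each. Without the library labelled fl/fl UUO with LY2109761 replicate 3, whose Pcmt1 level was within the tKO range, Sod3 was called (edgeR adjusted p = 0.0267) and the other 3 were not. The genes with a higher effect are 3 of the 40 (7.5%), where 7.05% of all tested genes were called higher, and the 1 with a lower effect is 2.5%, where 6.8% of all were. With column totals in place of TMM, 0 of the 40 passed, where 164 of all genes were higher and 125 lower.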

How the results depend on the processing

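With RLE scaling, with mitochondrially encoded genes left out and with DESeq2, all 69 called gene values kept direction and call. Calls were lost in 11 without a filter, in 23 with the compared groups alone, in 6 with the replicate block and in 33 with column totals, which turned 12 more round. With column totals the 40 genes gave 18 higher and 2 lower after UUO in tKO, 10 and 6 in fl/fl, 5 lower in tKO against fl/fl sham kidneys, 0 and 2 in tKO against fl/fl UUO kidneys, and 0 and 0 in the genotype by LY2109761 interaction. Over all 19256 tested genes the same scaling gave 11686 higher and 715 lower after UUO in tKO and 8547 and 906 in fl/fl. In tKO against fl/fl kidneys it gave 70 higher and 222 lower after sham surgery and 365 and 317 after UUO. The interaction gave 164 and 125. The values turned round were, in tKO, Gclm 0.32, Txn2 0.56, Txnrd2 0.32, Prdx3 0.55, Prdx6 0.52 and Sod3 0.31, with Nfe2l2 at 0.74 newly called, and in fl/fl Txn1 0.22, Txn2 0.13, Txnrd2 0.03, Prdx3 0.04, Prdx6 0.08 and Blvrb 0.07; the cause was not tested. With the compared groups alone, 0 were lower in sham kidneys and 5 higher in the genotype by LY2109761 interaction, where 3 and 1599 of all genes were. Without a filter that interaction gave 1 higher and 0 lower, where 887 and 737 of all genes were. DESeq2 gave 5 lower in tKO against fl/fl kidneys with LY2109761, 1 lower for LY2109761 in fl/fl, and 1 higher and 1 lower in tKO. Over all genes DESeq2 called 553 higher and 937 lower, 946 and 1111, and 438 and 508 in these comparisons. With the replicate block there was 1 higher in tKO against fl/fl sham kidneys, 1 lower with LY2109761 and 3 lower in the interaction. Over all genes these counts were 865, 153 and 1152. Same-numbered libraries correlated at −0.15 to 0.20 in their deviations, over 0.1 in 4 of 40 pairs. Libraries with different numbers correlated at −0.19 to 0.20, over 0.1 in 9 of 95 pairs, so no pairing by number was seen. Leaving out each library gave 4 to 6 higher and 11 to 17 lower after UUO in tKO, 3 to 5 and 13 to 16 in fl/fl, 0 to 17 lower in tKO against fl/fl sham kidneys, 1 to 3 and 2 to 8 after UUO, 0 to 1 lower with LY2109761, 0 to 1 higher in the genotype by obstruction interaction, and 1 to 4 higher and 0 to 2 lower in the genotype by LY2109761 interaction. Calls over all genes moved too, with 210 to 2358 lower in tKO against fl/fl sham kidneys. In the genotype by obstruction interaction 2 to 216 of all genes were higher. Gpx3 after UUO in tKO ran between −4.2 and 0.60, the upper end without the library labelled tKO sham replicate 1. Depth limits Slc7a11, which had 1 count in the tKO sham group.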
